A study of Homo sapiens with 48 samples.

Results

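Aminoacyl-tRNA synthetases are the enzymes that join each amino acid to its transfer RNA. Their transcripts were followed in 48 samples of THP-1 macrophages, where 35 synthetase genes were found by gene symbol among 20399 measured genes. Of these, 19 were grouped as cytosolic enzymes and 16 as mitochondrial ones. Each gene was placed in 1 group only, also where its product may serve both compartments. The genes were chosen by symbol, but the family was selected on earlier results of the same log2 values, among them the difference of HARS1 between samples labelled Fullerene 6 h and control 6 h, so that value is given as a description. Each gene was represented by the array feature with the highest mean over the 48 samples, and 4 of the genes had more than 1 feature.

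THP-1 is an established human monocytic leukaemia line, and in all samples, controls included, the cells had been differentiated to macrophages with PMA, a phorbol ester. Cells were exposed for 6 or 24 h to 100 µg of a carbon material in 1 ml of medium. The materials were labelled rCNT, tCNT, Baytube, Graphite, Fullerene and SES, with 3 samples for each material and time, and the medium controls had 6 samples at 6 h and 6 at 24 h. The labels do not state whether samples of one group came from separate cultures, so p-values measure only the spread between these samples, which may be technical. RNA was hybridised in 3 dyes, and the number of samples limits the precision. Over all genes, a fold change of a material against control had a median SE of 0.26 on the log2 scale. For the members in Fullerene 6 h the SE ran from 0.19 (NARS1) to 0.79 (AARS1).

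Columns of the deposited values that lie 20 or 40 apart shared marks of the array surface. The median correlation of their surface components was 0.85, against -0.06 for other pairs of columns. These columns form 20 column sets, 8 of 3 columns and 12 of 2. Of the 36 pairs of columns within a set, 0 shared a labelled array and 2 shared a labelled group, so labels and columns may be out of step. No sample was moved to another group, and every group is named below as the samples so labelled. In 6 samples, which made up column sets 13, 15 and 16, the surface component varied more than elsewhere (SD above 0.2). They were labelled tCNT 24 h replicate 1, Fullerene 6 h replicate 1, Graphite 24 h replicate 1, Baytube 6 h replicate 3, tCNT 6 h replicate 3 and control 6 h replicate 5. The macrophage transcripts MMP9, CSF1R and CD68 had mean log2 values of 15.71, 15.29 and 13.74, with the epithelial genes EPCAM, CDH1, KRT18 and KRT8 at 6.73 to 8.91 and the fibroblast genes COL1A1, COL1A2, DCN and PDGFRA at 6.83 to 9.32. Of the lymphocyte genes, MS4A1 and CD3E stood at 6.86 and 7.28 and CD79A and GNLY at 10.64 and 11.30, and of the granule genes MPO stood at 6.61, ELANE at 11.59 and AZU1 at 13.44. Levels of different probes are not comparable.

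The cytosolic enzymes charge the transfer RNAs used by cytosolic ribosomes, and several of them (EPRS1, IARS1, LARS1, MARS1, QARS1, RARS1, KARS1 among them) sit together in the multi-synthetase complex. The mitochondrial enzymes are nuclear-coded, with the suffix 2 in most names, and serve the mitochondrial ribosome. When an amino acid is scarce, uncharged transfer RNA activates the kinase GCN2, translation of the factor ATF4 rises, and ATF4 raises the transcription of amino acid synthesis genes such as ASNS, of stress genes such as CHAC1, TRIB3 and DDIT3, and of a part of the cytosolic synthetases. A list of 12 cytosolic members known as ATF4 targets was used here: AARS1, CARS1, EPRS1, GARS1, IARS1, LARS1, MARS1, NARS1, SARS1, TARS1, WARS1 and YARS1. The other 7 cytosolic members were FARSA, FARSB, HARS1, KARS1, QARS1, RARS1 and VARS1.

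ATF4 binds, as a dimer with C/EBP proteins, a composite element whose core can be written TGATGNAA. RefSeq promoter sequences (GRCh38.p14) were searched for this core on both strands. Each reached 250 bases before and 50 bases after a start listed for the gene. Some genes had more than 1 promoter, and a match in any of them was counted. A match was found in 7 of the 10 ATF4-linked members with a RefSeq promoter, in 0 of 6 other cytosolic members and in 1 of 14 mitochondrial members. It was present in 4.46% of all 27305 genes of that collection and in 3.62% of its 35116 promoters. The ATF4-linked members were listed as known targets of ATF4, so the list may not be independent of this element. Nothing is read from the difference between the groups. The matches follow with 11 bases on each side, 5′ to 3′ on the strand of the gene, with the core in capitals. The rule for choosing the 35 members did not use this sequence feature. A core that lies on the opposite strand reads TTNCATCA. The first lines are cytosolic members, then the mitochondrial member YARS2 and the reference genes ASNS and CHAC1.
AARS1 (chr16:70289675-70289704, minus strand): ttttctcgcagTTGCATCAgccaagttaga
CARS1 (chr11:3057407-3057436, minus strand): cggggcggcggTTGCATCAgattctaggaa
GARS1 (chr7:30594834-30594863, plus strand): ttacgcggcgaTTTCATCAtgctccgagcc
IARS1 (chr9:92293692-92293721, minus strand): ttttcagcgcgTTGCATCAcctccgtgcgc
MARS1 (chr12:57488053-57488082, plus strand): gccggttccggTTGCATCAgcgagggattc
NARS1 (chr18:57621804-57621833, minus strand): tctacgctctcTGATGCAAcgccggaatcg
TARS1 (chr5:33440956-33440985, plus strand): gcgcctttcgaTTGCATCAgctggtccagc
YARS2 (chr12:32756076-32756105, minus strand): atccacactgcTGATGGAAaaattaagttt
ASNS (chr7:97872458-97872487, minus strand): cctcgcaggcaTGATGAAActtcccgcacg
CHAC1 (chr15:40953251-40953280, plus strand): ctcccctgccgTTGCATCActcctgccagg

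Positions are relative to the start of the promoter that held the match, with negative positions before it. The core began at -2 in CARS1, -4 in MARS1, -13 in IARS1, -33 in GARS1, 2 in TARS1 and 14 in NARS1. CARS1, GARS1, TARS1 and ASNS had 2 promoters each, of which 1 held the core. In GARS1 and TARS1 the core lay after the first base of the gene, at 30594735 and 33440696. In AARS1 and YARS2 it lay farther away, at -187 and -197. In ASNS it began at -68 and in CHAC1 at -209. TRIB3, DDIT3, PSAT1 and MTHFD2 had no match in this window, and neither did EPRS1, WARS1 or SARS1. A match is a description of the letters and says nothing about binding in these cells. AARS1, the alanyl-tRNA synthetase, followed ASNS most closely in the values below, and the 250 bases before its start are therefore shown.
AARS1 (chr16:70289507-70289756, minus strand): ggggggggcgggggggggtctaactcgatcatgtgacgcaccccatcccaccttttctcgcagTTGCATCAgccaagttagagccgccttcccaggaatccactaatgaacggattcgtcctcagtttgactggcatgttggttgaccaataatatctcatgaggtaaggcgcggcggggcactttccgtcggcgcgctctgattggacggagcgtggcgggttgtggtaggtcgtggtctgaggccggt

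The labelled groups held no more of the variation of the synthetases than is expected with no effect of group. Over the 35 members, the median share of a gene's variance that lay between the 14 labelled groups was 22.8%, against 24.2% over all genes, where 27.7% is that expected share. In a test of any difference among the 14 groups, 0 members passed (limma F test, adjusted p under 0.05), against 0.0196% of all genes. At an unadjusted p under 0.05 there were 3 members, HARS1, GARS1 and FARSA, against 2.77% of all genes, and the lowest adjusted p was 0.589, for HARS1 (limma). The column sets held most of the variation. The median share between the 20 sets was 87.3% over the members, 90.2% over the mitochondrial and 78.9% over the cytosolic ones, against 80.0% over all genes and 40.4% with no effect of set. Of the members 33 differed among the sets (limma F test, adjusted p under 0.05), as did 88.3% of all genes. The exceptions were MARS1 (limma adjusted p = 0.232) and its mitochondrial counterpart MARS2 (limma adjusted p = 0.0895), the methionyl-tRNA synthetases.

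The share between sets was highest for HARS1 (99.1%), RARS1 (97.8%) and CARS2 (97.3%), which charge histidine, arginine and mitochondrial cysteine transfer RNA, and lowest for MARS1 (46.1%), MARS2 (52.7%) and GARS1 (58.7%). Over all samples the most variable members were HARS1, AARS1 and RARS1, with SDs of 1.16, 1.09 and 0.99 on the log2 scale (n = 48). The least variable were NARS1 (0.28), SARS1 (0.30) and then IARS1, HARS2 and IARS2 (0.31). The median SD was 0.53 for cytosolic and 0.43 for mitochondrial members, against 0.38 over all genes. Means ran between 8.07 for VARS2 and 14.41 for KARS1, and the feature-specific scale makes their order uninformative.

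HARS1, the cytosolic histidyl-tRNA synthetase, was the only member called in any of the 12 comparisons of a material with its control. Its log2 values in samples labelled Fullerene 6 h were 12.27, 7.90 and 8.21, against 12.65, 12.77, 12.21, 12.76, 12.25 and 12.79 in control 6 h samples. Replicates 2 and 3 of Fullerene lay more than 3 log2 units below every control, and replicate 1 lay within the range of the controls. The means were 9.46 ± 2.44 (SD, n = 3) in Fullerene 6 h and 12.57 ± 0.27 (SD, n = 6) in control 6 h, and the log2 fold change was -3.11 (SE 0.62), with an adjusted p of 0.0104 in limma. In this comparison 91 genes passed, 0.446% of all, 69 of them lower (0.338%), and HARS1 had been singled out from this contrast, so nothing is read from its count. As in any bulk sample, fewer cells of a kind and less RNA per cell cannot be told apart.

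The low HARS1 values lay in one column set. The samples of column set 3 were Fullerene 6 h replicates 2 and 3 and tCNT 6 h replicate 1, in which HARS1 was 8.34. The next lowest of the 48 values was 11.94, in Baytube 6 h replicate 3. The low values thus crossed 2 labelled materials, and filled the set completely, as the plot of values by column set shows. On the array, 16.7% to 20.8% of the 24 spots around the HARS1 feature were also more than 1 log2 unit below their own medians in these samples, where the median over all members and samples was 0.0%. Without column set 3 the log2 fold change in Fullerene 6 h was -0.27 (limma adjusted p = 0.977), with 1 exposed sample left. With the sets as a random block it was -1.78 (limma adjusted p = 0.237), and with sets and column runs (the first 20, next 20 and last 8 columns) as fixed terms -0.40 (limma adjusted p = 0.833). Leaving out 1 sample, the fold ran between -4.63, without Fullerene 6 h replicate 1, and -2.27, and the call was lost without replicate 2 (-2.27) or 3 (-2.44) of that group. It was also lost with the replicate block (-3.07, limma adjusted p = 0.06), when only these 2 groups were fitted (limma adjusted p = 0.235) and against controls of code 1 or 6 alone (0.147 and 0.228). Apart from the fits without a single sample, the call stayed in 12 alternatives and was lost in 7. With the surface component removed it stayed, at -3.06 (limma adjusted p = 0.00862). That component was -0.07 to -0.19 at the HARS1 feature in the samples of column set 3. The part of the array surface and of the labels in this value was not tested further.

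**Figure D1:**
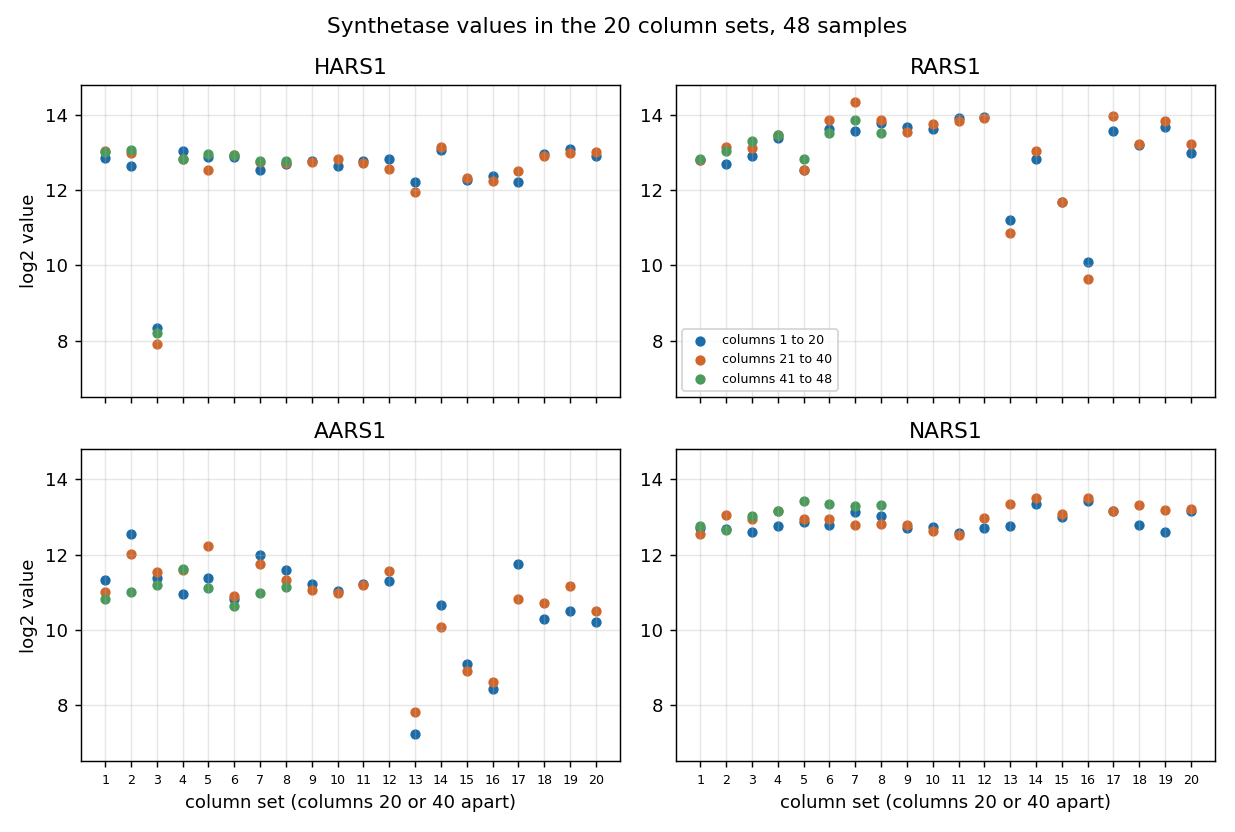
Log2 values (vertical axis) of HARS1, RARS1, AARS1 and NARS1 in each of 48 samples, placed by column set (horizontal axis), with 1 point for each sample and colours for the first 20, next 20 and last 8 columns. HARS1 is low in all 3 samples of set 3, RARS1 and AARS1 are low in sets 13 and 16, and NARS1 stays between 12.53 and 13.50.

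HARS2, the mitochondrial histidyl-tRNA synthetase, did not share the low values. The genes HARS1 and HARS2 lie head to head on chromosome 5 and are transcribed away from each other, so that one stretch of DNA serves as the promoter of both. Their starts are at positions 140691370 for HARS1 and 140691455 for HARS2 (RefSeq, GRCh38.p14), and the 86 bases including both starts are shown because the neighbouring genes gave different values.
HARS1 to HARS2 (chr5:140691370-140691455, plus strand): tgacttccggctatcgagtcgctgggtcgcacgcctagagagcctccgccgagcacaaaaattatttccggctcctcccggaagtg

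In column set 3 HARS2 stood at 11.83 and 12.18 in Fullerene 6 h replicates 2 and 3 and at 11.82 in tCNT 6 h replicate 1. Over all 48 samples it ran from 11.55 to 13.14 with a median of 12.12, so these values lay well within its range, as the plot by labelled group shows.

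**Figure D2:**
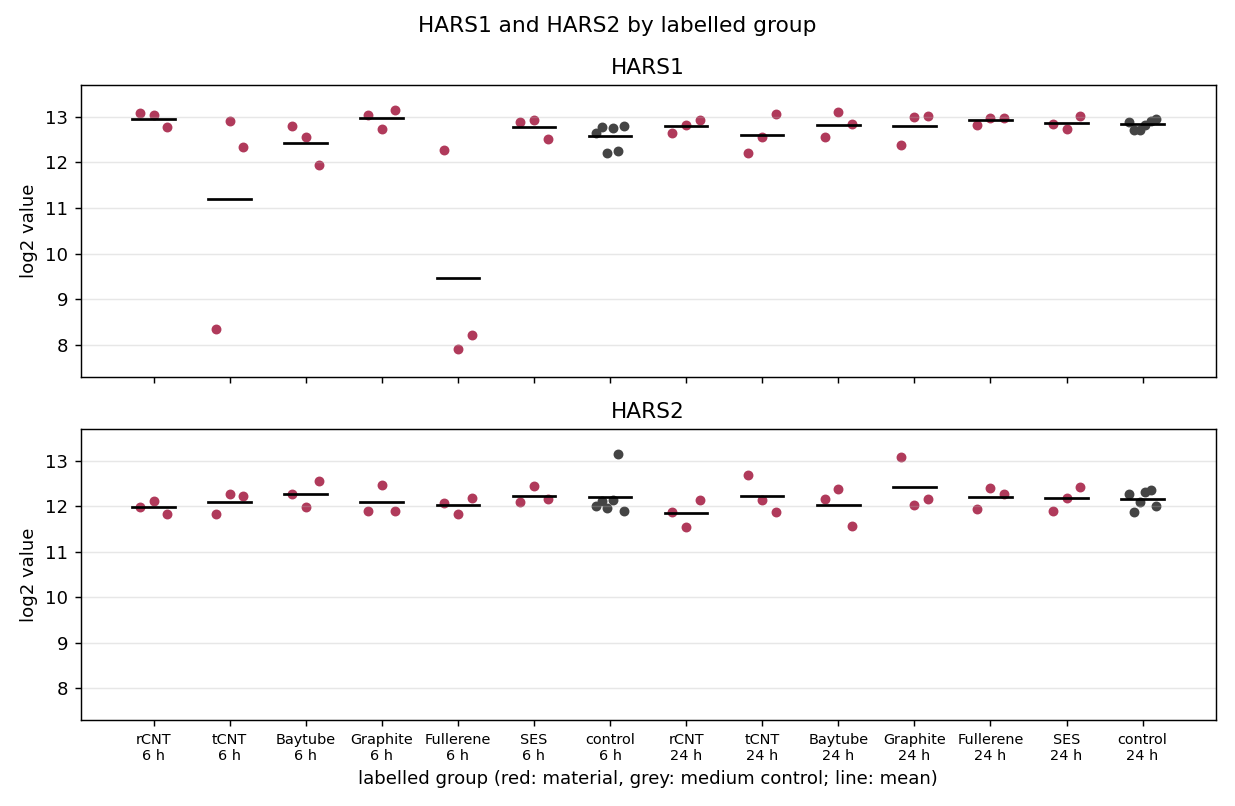
Log2 values of HARS1 (top) and HARS2 (bottom) by labelled group, with material groups in red, medium controls in grey and a line at the mean of each group (3 samples per material group, 6 per control). HARS1 falls below 9 in 2 samples labelled Fullerene 6 h and 1 labelled tCNT 6 h, and HARS2 does not.

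No other member passed in the material comparisons (limma, adjusted p under 0.05), where in the 11 comparisons other than Fullerene 6 h 0% of all genes passed. FARSA, the catalytic subunit of the phenylalanyl-tRNA synthetase, came nearest. Its values were 13.29, 13.84 and 13.96 in samples labelled Fullerene 6 h, against 12.43, 12.31, 11.95, 12.74, 12.99 and 12.10 in control 6 h, and all 3 exposed samples lay above all controls. On the log2 scale the difference was 1.28 ± 0.33 (SE; limma adjusted p = 0.0785). Replicates 2 and 3 are of column set 3, whose tCNT 6 h sample read 13.39, and with the sets as a random block the difference was 0.82 (limma adjusted p = 0.398). CARS2 in Fullerene 6 h stood at -1.71 ± 0.54 (SE; limma adjusted p = 0.198), with exposed values of 9.48, 12.13 and 12.02. At an unadjusted p under 0.05 there were 4 members in Fullerene 6 h, where 11.2% of all genes reached that level, 3 in tCNT 6 h (6.27% of genes) and 10 in Graphite 24 h (15.7%). The count was 1 in Baytube 6 h (0.941%), Graphite 6 h (1.94%), SES 6 h (0.677%), rCNT 24 h (4.5%) and tCNT 24 h (2.19%). It was 0 in rCNT 6 h (2.31%), Baytube 24 h (4.69%), Fullerene 24 h (0.613%) and SES 24 h (2.97%).

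In samples labelled Graphite 24 h, 7 of the 10 members at that unadjusted level were cytosolic, where 19 of all 35 members are. They went both ways. FARSA (log2 fold change 0.86) and WARS1 (0.5) were higher, and EPRS1 (-0.9), KARS1 (-0.77) and RARS1 (-1.5) were lower. The mitochondrial WARS2 was also lower (-0.75). CARS1, the cysteinyl-tRNA synthetase, had a log2 fold change of 0.80 and GARS1, the glycyl-tRNA synthetase, of 0.85, while AARS2 stood at 0.67 and NARS2 at -1.49 (limma adjusted p between 0.185 and 0.190). NARS2 had an exposed mean of 8.22 ± 1.2 (SD, n = 3) against a control mean of 9.70 ± 0.40 (SD, n = 6), and its value in Graphite 24 h replicate 1 was 6.84. That sample is one of the 6 with a strong surface component, and EPRS1 (11.64) and RARS1 (10.08) were low in it too. Without those 6 samples 11 members reached the unadjusted level in Graphite 24 h, against 18.1% of all genes, and 0 were called (limma). In Fullerene 6 h, where replicate 1 is then left out, 4 members were called against 4.53% of all genes: HARS1 at -4.70, FARSA at 1.64, SARS2 at 1.58 and KARS1 at -1.14 (limma adjusted p = 1.16e-06, 0.0174, 0.0468 and 0.0266). The exposed samples left there were both of column set 3.

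The medians of both compartments stayed within 0.25 of 0 on the log2 scale in the material comparisons. At a given time these share their control samples, so the values are given side by side. The median log2 fold change of the 19 cytosolic members ran from -0.09 in tCNT 24 h to 0.20 in rCNT 24 h over the 12 comparisons. That of the 16 mitochondrial members ran from -0.25 in rCNT 24 h to 0.11 in SES 6 h. Over all genes the medians stayed between -0.01 and 0.02. The number of cytosolic members above 0 ran from 7 of 19, in tCNT 24 h and SES 24 h, to 15, in rCNT 6 h and Fullerene 24 h. That of mitochondrial members ran from 4 of 16, in tCNT 6 h, to 12, in SES 6 h. Between the 24 h and 6 h controls 0 members and 0% of all genes passed (limma). FARSB, the regulatory subunit of the phenylalanyl-tRNA synthetase, was the 1 member at an unadjusted p under 0.05, at a log2 difference of 0.54 (limma adjusted p = 1), where 1.14% of genes reached that level. In the tests of whether a material's effect differed between 24 h and 6 h, 0 members and 0% of all genes passed for each of the 6 materials (limma). At an unadjusted p under 0.05 there were 8 members for Graphite (9.12% of genes), 4 for Fullerene (4.3%) and 1 for SES (1.61%), and 0 for rCNT (1.3%), tCNT (2.97%) and Baytube (2.45%).

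Genes that work with the synthetases gave no call either. Lists of 18 amino acid response genes, 9 amino acid transporters, 8 genes of amino acid sensing and the eIF2 alpha kinases, 8 interferon-gamma targets, 7 elongation factors, 11 genes of tRNA export and maturation and 12 mitochondrial ribosomal proteins were measured, and of the scaffold proteins of the multi-synthetase complex only 1. None of these genes was called in any comparison (limma, adjusted p under 0.05). At an unadjusted p under 0.05 the highest count for the amino acid response was 4 of 18, in Graphite 24 h, where 15.7% of all genes reached that level, and its median log2 fold change ran from -0.16 to 0.29 over the 12 material comparisons. For the interferon-gamma targets it was 4 of 8, in the same comparison, for the transporters 3 of 9, in rCNT 24 h (4.5% of all genes), and for the other lists at most 2. Among the column sets 10 of 18 amino acid response genes, 7 of 9 transporters and 11 of 12 mitochondrial ribosomal proteins differed (limma F test), against 88.3% of all genes.

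Low values of single members followed the columns. Of 1680 values (35 members in 48 samples), 23 lay more than 2 log2 units below the median of their gene and 0 more than 2 above. Such values were not counted over all genes, so these numbers are not particular to the synthetases. The 23 low values belonged to 10 members and to 13 combinations of a member and a column set, and in 9 of these combinations every sample of the set was low. Of the 23 values, 17 were in the 6 samples with a strong surface component. Around the low spots a median of 25% of neighbouring spots were more than 1 below their own medians, against 0.0% over all values.

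AARS1 ran from 7.23 to 12.55 over the 48 samples with a median of 11.03. Its 5 low values were 7.23 in tCNT 24 h replicate 1 and 7.82 in Baytube 6 h replicate 3 (set 13), 8.90 in tCNT 6 h replicate 3 (set 15), and 8.42 in Graphite 24 h replicate 1 and 8.61 in control 6 h replicate 5 (set 16). In each of them 41.7% of the neighbouring spots were low. RARS1, the arginyl-tRNA synthetase, was low in sets 13 and 16, at 9.64 to 11.21 against a median of 13.35, with 45.8% of neighbours low. NARS2, the mitochondrial asparaginyl-tRNA synthetase, was at 6.84 and 6.78 in set 16 against a median of 9.33, with 58.3% and 62.5% of neighbours low.

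TARS1 and CARS2 were low without low neighbours. TARS1, the threonyl-tRNA synthetase, was at 10.23 in Fullerene 6 h replicate 1 and 10.16 in tCNT 6 h replicate 3, the samples of set 15, against a median of 13.59. CARS2, the mitochondrial cysteinyl-tRNA synthetase, was at 9.48 and 9.45 in the same samples against a median of 12.83. For both genes 0.0% of the neighbouring spots were low. QARS1 and VARS1, for glutamine and valine, were low in 1 sample each, SES 6 h replicate 2, at 11.80 and 10.48. YARS1, for tyrosine, was low in control 6 h replicate 6, at 9.72, and EPRS1, for glutamate and proline, in both samples of set 16, at 11.56 and 11.64.

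Genes with several features gave separate readings of one transcript. NARS1, the cytosolic asparaginyl-tRNA synthetase, had 10 features. In the 6 samples of column sets 13, 15 and 16, feature 21129 read 6.90 to 9.99, while the other 9 features read 11.24 to 13.65 in the same samples. In the other 42 samples the ranges were 10.77 to 13.69 for feature 21129 and 11.72 to 13.74 for the others. The SD of feature 21129 was 1.67, of which 98.7% lay between column sets, and the SDs of the others ran from 0.26 to 0.51. The feature that stands for NARS1 in the comparisons was 15400, with an SD of 0.28.

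**Figure D3:**
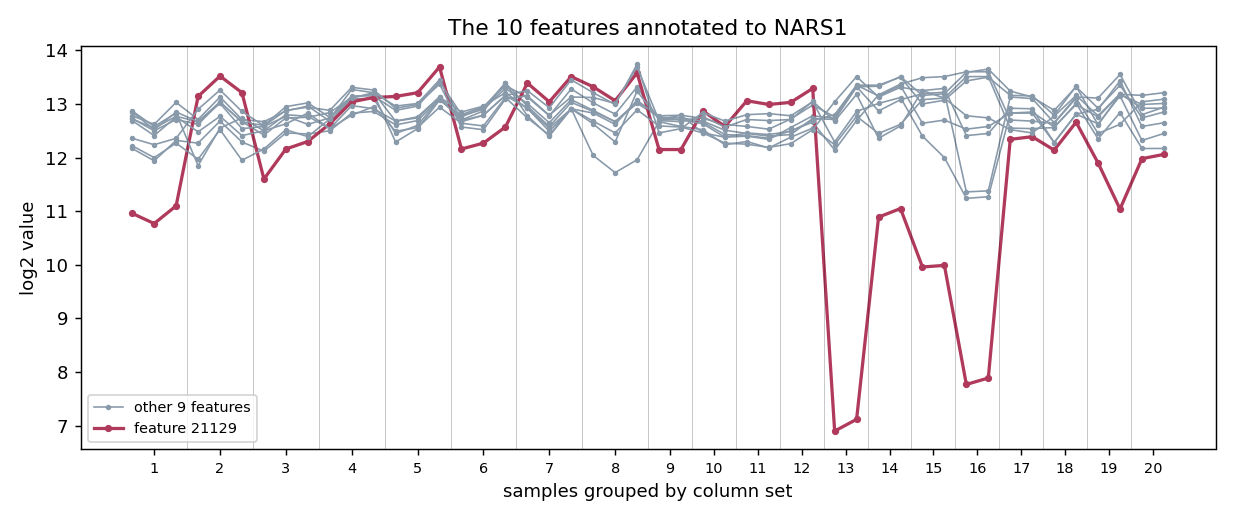
Log2 values (vertical axis) of the 10 features annotated to NARS1 in 48 samples, ordered by column set (horizontal axis), with feature 21129 in red and the other 9 in grey. Feature 21129 reads 6.90 to 9.99 in sets 13, 15 and 16, where the others read 11.24 to 13.65.

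When the column means were taken out, the features of a gene moved together. For this, each value was expressed as its deviation from the mean of its column set and from the mean of its column run, which leaves 26 residual degrees of freedom in 48 samples. In a set of 2 columns both deviations mirror each other, so 48 points are not 48 independent values. The median correlation between the features of NARS1 was 0.34 over the values as deposited and 0.86 over the deviations (45 pairs). For the 10 features of MARS2 it was 0.50 and 0.87. For the 3 features of IARS1, the isoleucyl-tRNA synthetase, the medians were 0.41 and 0.49. The pair of features of MARS1 correlated at -0.35 and 0.03, so values of MARS1 depend on the feature. All correlations here are over the same 48 samples, whose features share arrays and labelling, and are given as descriptions.

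Across members, the values as deposited showed no common movement. The median pairwise correlation was 0.04 among cytosolic members (171 pairs), -0.01 among mitochondrial members (120 pairs) and 0.00 between the compartments (304 pairs), and 0.00 among every 20th gene of the table. Over the deviations the medians were 0.15 among cytosolic, 0.17 among mitochondrial and 0.05 between the compartments, and again 0.00 among every 20th gene. The ATF4-linked members had a median of 0.35, with 55 of 66 pairs above 0, and the other cytosolic members 0.14, with 15 of 21 above 0. Members of the 2 cytosolic groups correlated with each other at a median of 0.03. The members of the multi-synthetase complex had a median of 0.18 (21 pairs), below that of the ATF4-linked members.

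Over the same deviations, the ATF4-linked members varied with the amino acid response genes, and the other groups of synthetases had medians below 0. The 18 response genes correlated among themselves at a median of 0.45. Against the mean of the rest of the list, 16 were above 0, with ASNS highest at 0.95, while DDIT3 stood at -0.18 and CEBPB at -0.10. DDIT3 correlated with members outside the ATF4-linked list, at 0.69 with KARS1 and 0.68 with FARSB. Pairs of an ATF4-linked member and a response gene had a median of 0.33 (185 of 216 above 0), pairs with another cytosolic member -0.17 (47 of 126 above 0) and pairs with a mitochondrial member -0.16 (106 of 288 above 0). Against the mean profile of the response genes, the ATF4-linked members had a median r of 0.50, with 12 of 12 above 0 and 6 above 0.5. The other cytosolic members had a median of -0.30 with 0 of 7 above 0.5, and the mitochondrial members -0.39 with 1 of 16. Among all other genes the median was -0.03 and 8.9% were above 0.5. Over the values as deposited the medians were 0.18, 0.01 and -0.06 for the same groups, with 0 members above 0.5, against 1.6% of the other genes. The list of ATF4-linked genes was chosen with earlier results of these values known, and no test was made of the difference between the groups.

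**Figure D4:**
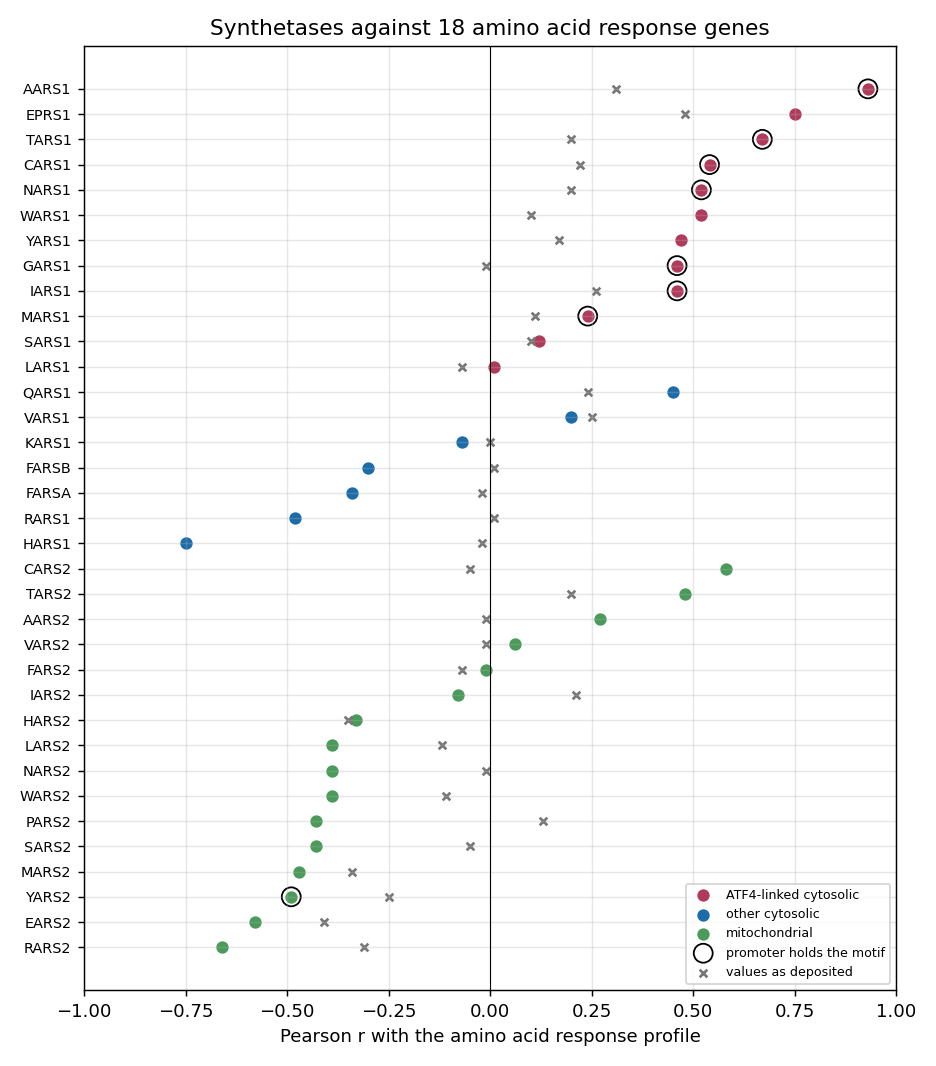
Pearson r of each of the 35 synthetases (rows) with the mean profile of 18 amino acid response genes over 48 samples, as coloured points for deviations from column set and run means and as grey crosses for the values as deposited. A ring marks a promoter with the core TGATGNAA. AARS1 is highest at 0.93, and HARS1 is lowest at -0.75.

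AARS1 had the highest r with the response profile, at 0.93. EPRS1 followed at 0.75, TARS1 at 0.67, CARS1 at 0.54 and NARS1 and WARS1 at 0.52. LARS1, the leucyl-tRNA synthetase, and SARS1, the seryl-tRNA synthetase, were ATF4-linked members near 0, at 0.01 and 0.12. Of the members outside the list, CARS2 stood at 0.58, TARS2 at 0.48 and QARS1 at 0.45. At the other end were HARS1 at -0.75, RARS2 at -0.66 and EARS2 at -0.58. The 8 members with the promoter core had a median r of 0.49, from -0.49 (YARS2) to 0.93 (AARS1), and the 22 members whose promoter lacked it had -0.34, from -0.75 (HARS1) to 0.75 (EPRS1). Of the 8, 7 are ATF4-linked, so this split largely repeats that list. Within the list, members with the core ran from 0.24 (MARS1) to 0.93 (AARS1). EPRS1, WARS1 and SARS1, which lacked it, stood at 0.75, 0.52 and 0.12. The part of the core in these values was not tested.

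ASNS, the asparagine synthetase, is a well-known target of ATF4, and AARS1 moved with it inside the column sets. The Pearson correlation over the deviations was 0.89 (Spearman 0.88, n = 48, 0.88 without the 2 samples farthest from the median of ASNS), and over the values as deposited -0.25. For EPRS1 it was 0.82, for NARS1 0.66, and for HARS1 -0.72. The 10 features of NARS1 had correlations with ASNS from 0.25 to 0.66 with a median of 0.60, and both features of MARS1 stood near 0.4, at 0.42 and 0.41. The 3 features of IARS1 stood at 0.56 for the feature used here and at 0.46 and 0.0 for the others, so its value depends on the feature. Taking in each column set the difference between its column among the next 20 and its column among the first 20, AARS1 and ASNS differed in the same direction in 17 of 20 sets. AARS1 differed by 0.85 and ASNS by 1.81 in set 5, and by -0.94 and -1.71 in set 17. In set 13, where AARS1 was lowest, the difference was 0.58 for AARS1 and 1.55 for ASNS. EPRS1 had the sign of ASNS in 15 sets, GARS1 in 12 and HARS1 in 5.

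**Figure D5:**
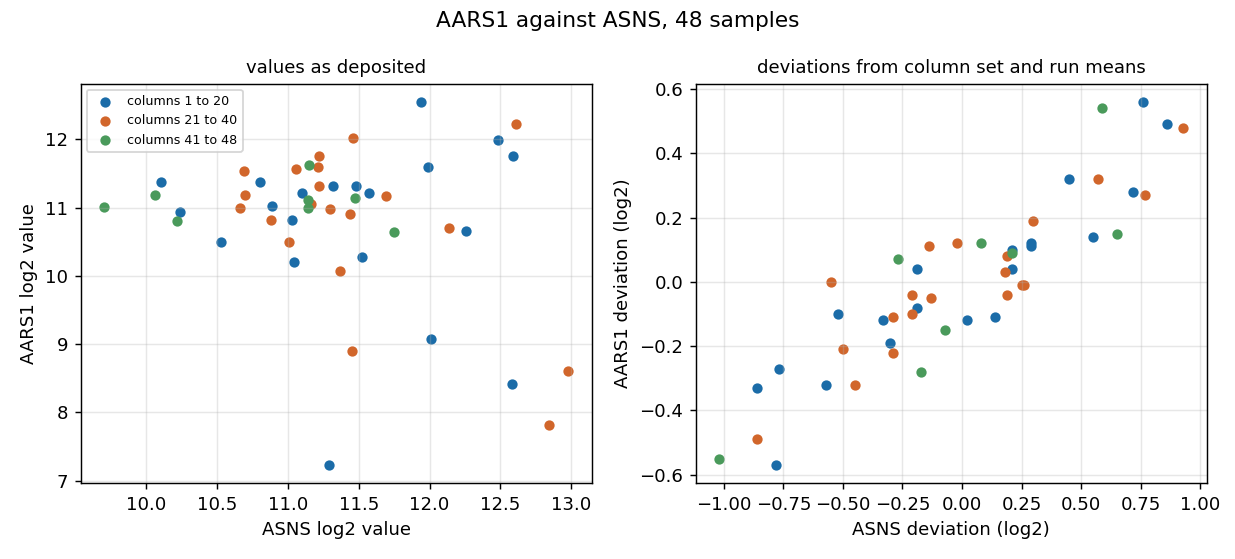
AARS1 (vertical axes) against ASNS (horizontal axes) in 48 samples, as deposited log2 values on the left and as deviations from column set and run means on the right, coloured by column run. The correlation is -0.25 on the left and 0.89 on the right.

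Between the 14 labelled groups lay a median of 31.0% of the variance of the members' deviations, where 29.4% is the share with no effect. For the values as deposited the corresponding shares were 22.8% and 27.7%. Over the deviations the share was 31.6% for AARS1 and highest for SARS2, at 48.3%. With sets and runs as fixed terms, 0 members were called in the 12 material comparisons (limma), and 1 gene of all.

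Partner enzymes were compared with each other over the deviations. FARSA and FARSB, the subunits of one enzyme, correlated at 0.53, against 0.17 as deposited. Of 15 pairs of a cytosolic and a mitochondrial enzyme for the same amino acid, the median was 0.11, against -0.31 as deposited. RARS1 and RARS2 stood highest at 0.63, MARS1 and MARS2 at 0.54 for the MARS1 feature used here and -0.02 for its other feature, and HARS1 and HARS2 at 0.41. LARS1 and LARS2 were opposite at -0.53. WARS1, the tryptophanyl-tRNA synthetase, is also known as an interferon-gamma target, and correlated at 0.11 with IRF1 and 0.21 with GBP1. With the mean amino acid response profile it stood at 0.52, which cannot be set against values for single genes. With single response genes WARS1 ran from -0.015 (PSPH) to 0.579 (DDIT4), with CHAC1 at 0.286 and TRIB3 at 0.273. Correlations with the other interferon-gamma targets are not given here, so the lists are not ranked for WARS1.

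The genes most like the mean profile of the cytosolic members differed between the forms of the data. As deposited, HMSD (r = 0.69), WTAP, RCAN1, WDR11, MAPK10, CHML, TRIM65, POLR1E, STK36 and BICRAL (0.61) came first. Over the deviations PDHA1, a subunit of pyruvate dehydrogenase, was first at 0.86, followed by PA2G4, LRIG3, PAICS, SNRPA1, LY75, GART, NOLC1, SLC7A1 and MANEAL (0.76). PAICS and GART are enzymes of purine synthesis, NOLC1 is a nucleolar protein and SLC7A1 is a cationic amino acid transporter.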

How the data were processed

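Microarray signals of 48 THP-1 samples in 3 dyes were used as deposited, as log2 values of 45220 features between 6.05 and 16.00 (sample medians 7.68 to 7.70). The submitters' processing notes name R 2.3 and limma, and the background correction and normalisation are not given in the sources used here. The labels gave groups, times and dyes. A single gene symbol belonged to 35268 features and 9952 had none here. A RefSeq table updated 35128 of the symbols, and 140 stayed as the platform gives them. Each of 20399 genes was represented by its feature with the highest mean.

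All 48 samples entered one limma 3.58.1 model (R 4.3.3) with terms for 14 groups and dye, leaving 32 residual degrees of freedom. P-values were adjusted by Benjamini-Hochberg within each contrast over all genes, at 0.05. Labelled array as a block had a consensus correlation of -0.0224 and was left out. For column sets as a block it was 0.72. The main model has no term for column sets, so its SEs and p-values take no account of that correlation. Column sets, column runs and the surface component (a running median over 11 by 11 spots, 85 spots a row) were found in the values. Members and lists were chosen with earlier results of these data known. All members could be named. Other genes were named where they passed a test or were most like the mean cytosolic profile. Samples with the same title number deviated together with a mean r of 0.0105 and a lowest of -0.81, and no pairing was seen. Scripts were tested on simulated data. For the limma fit the simulated noise was independent between samples and lacked the correlation within column sets. That test therefore does not show how the fit behaves with such correlation. Alternatives were other terms, blocks, normalisations, features, controls and sample subsets.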

Additional observations from a re-analysis of the deposited data

Results flagged for a closer look

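In the 6 control samples of a time, a value stood apart from the other 5 by Dixon's criterion for 11 of 70 combinations of a member and a control group. The rate of this criterion for independent values is about 1 in 20. Members share the same samples, so the combinations are not independent. The share over all genes was not counted, so nothing is read from the count about the synthetases. Of these, 7 were control 6 h replicate 5, a sample with a strong surface component. It was low for AARS1 (8.61, others 10.99 to 11.76), EPRS1 (11.56, others 13.66 to 13.98), RARS1 (9.64, others 13.56 to 13.92) and NARS2 (6.78, others 9.36 to 10.02). It was high for FARS2 (11.57, others 10.02 to 10.50), HARS2 (13.14, others 11.89 to 12.14) and RARS2 (13.47, others 12.40 to 12.77). YARS1 was low in control 6 h replicate 6 (9.72, others 11.59 to 12.37). At 24 h, CARS1 was high in control replicate 5 (11.08, others 10.54 to 10.72), VARS1 low in control replicate 1 (11.88, others 12.77 to 13.27) and EARS2 high in the same sample (10.05, others 9.66 to 9.80).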

How the results depend on the processing

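The number of members called in the 12 material comparisons was 1 as reported. It was 0 with the replicate block (title number in place of dye; HARS1 -3.07, limma adjusted p = 0.06; 57 genes of all called, against 91), with column sets as a block, with sets and runs as fixed terms, and against controls of code 1 or of code 6 alone. It was 2 with labelled slide as a term (FARSA added), 3 in fits of each contrast's own 2 groups (FARSA, KARS1 and SARS2 in Graphite 24 h; 814 genes of all), 4 without the 6 samples with a strong surface component (972 genes of all) and 2 without column set 3 (TARS1 at -3.11 and CARS2 at -3.47 in Fullerene 6 h, where 1 exposed sample was left, assumed to vary like the other groups). Without those 6 samples 1 member, HARS1, was also called for the difference between times in Fullerene and 1, HARS1 again, among the 14 groups. The cause of these changes was not tested.

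Leaving out 1 sample at a time, the counts ran from 0 to 2 for the material comparisons (FARSA in Fullerene 6 h where there were 2), 0 to 1 for the difference between times, 0 to 1 among the groups (HARS1 in both), 31 to 34 among the column sets and 0 to 0 between the controls. HARS1 in Fullerene 6 h ran from -4.63 to -2.27, and its call was lost without Fullerene 6 h replicate 2 (-2.27, limma adjusted p = 0.504) and replicate 3 (-2.44, limma adjusted p = 0.268). The median correlations and variance shares moved by less than the SD between members or pairs of members under the alternatives run. This is a loose criterion, since pairs of cytosolic members ran from -0.64 to 0.79 as deposited. The cytosolic median of 0.04 as deposited and 0.15 over the deviations counted as the same. Fits with sets and runs, and the fit without column set 3, were chosen after seeing the data. Signal over background was not examined.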
